A study of Schizosaccharomyces pombe with 8 samples.

Results

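The genes described here are the 9 core histone genes of fission yeast, Schizosaccharomyces pombe, together with the gene for the histone variant H2A.Z, 10 genes of the 5129 listed in each of 2 result tables. They were chosen by gene ID as the 3 pairs of neighbouring genes for histones H3 and H4, hht1 (SPAC1834.04) with hhf1 (SPAC1834.03c), hht2 (SPBC8D2.04) with hhf2 (SPBC8D2.03c) and hht3 (SPBC1105.11c) with hhf3 (SPBC1105.12). The H2A genes hta1 (SPCC622.08c) and hta2 (SPAC19G12.06c), the H2B gene htb1 (SPCC622.09) and the H2A.Z gene pht1 (SPBC11B10.10c) complete the set. All 10 IDs were found in both tables, and all 10 have a p-value and an adjusted p in each. Poly(A)-selected RNA was sequenced from cells of 4 groups with 2 libraries each. The group labelled WT was compared with seb1-1, a viable mutant allele of the gene for Seb1, which binds RNA and associates with RNA polymerase II during elongation. The group labelled epe1KO, by its label a deletion of epe1, whose product counteracts heterochromatin, was compared with epe1KO_tfs1DN, which is labelled with the same deletion and is described as expressing a dominant-negative TFIIS, a factor that restarts stalled RNA polymerase II. Per the study, that form has a pair of acidic residues changed to alanine, is driven by the thiamine-repressible nmt1 promoter, and was sequenced in an isolate that had gained a new heterochromatic region. Changes private to that isolate and effects of tfs1DN cannot be told apart.

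A nucleosome wraps DNA around an octamer of H3, H4, H2A and H2B, and the cell makes most of these proteins in S phase, when the genome is duplicated. In fission yeast, as in budding yeast, core histone mRNAs end in a poly(A) tail, so poly(A) selection retains them. H2A.Z replaces H2A in some nucleosomes, among them those near the starts of genes, and is put in place by the SWR1 remodelling complex. Methylation of a lysine in the tail of H3 marks heterochromatin, the form of chromatin that the study followed.

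The tables give each gene the authors' mean count over 4 libraries, a log2 fold change pulled towards 0 by a prior (moderated), its standard error (SE) and a Wald test. They hold no value for a single library, so the values below have no SD over replicates, and how deeply each library was sequenced is unknown. The targeted genes were read first. The mean of epe1 was 706 normalized counts in the epe1KO and epe1KO_tfs1DN libraries and 712 in the WT and seb1-1 libraries, although both epe1KO groups are labelled as lacking this gene. The tables were normalized separately and the extent of the deletion was not analysed here, so results on these libraries are given for the groups as labelled. The log2 fold change of seb1 was -0.19 ± 0.33 (SE) in seb1-1, with an adjusted p of 0.981. That of tfs1 was 0.22 ± 0.13 in epe1KO_tfs1DN, with an adjusted p of 0.328 by DESeq2. Reads of the introduced copy and of the native gene cannot be told apart in these tables. The study reports, from RNA-seq of cells grown with thiamine, that the promoter was leaky. Per the study, a small part of the tfs1 transcripts then came from the mutant allele and most from the wild-type allele.

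The 9 core histone genes share a sequence that the choice of genes did not use. It was searched for because the AACCCT box is known from fission yeast histone promoters, so finding it there was no independent result. Each of the 9 genes carries the letters AACCCT repeated in tandem, here called the tandem box, in the 250 bases before its annotated transcript start. The H3 and H4 genes of each pair, and hta1 with htb1, lie head to head with 132 to 201 bases between their transcripts and no coding gene in between, and the genes of a pair share 1 box. The 5 boxes with their flanks are shown because every core histone gene has one. Only AACCCT, its tandem repeat and GATA were searched, so other sequences that these promoters may share are unknown. They are written 5′ to 3′ on the strand on which the box reads AACCCT, from RefSeq assembly ASM294v3, with the box in capitals. None of the bases lies inside the annotated histone transcripts.
hht1 and hhf1, chrI:4699638-4699677, plus strand: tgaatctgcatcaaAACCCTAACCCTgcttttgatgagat
hht2 and hhf2, chrII:1365046-1365085, minus strand: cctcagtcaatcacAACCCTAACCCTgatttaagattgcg
hht3 and hhf3, chrII:3529613-3529652, plus strand: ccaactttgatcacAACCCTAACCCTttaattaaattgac
hta1 and htb1, chrIII:1412286-1412325, minus strand: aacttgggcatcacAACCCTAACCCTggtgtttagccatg
hta2, chrI:4053357-4053396, minus strand: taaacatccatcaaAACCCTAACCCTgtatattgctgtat
The 5 bases before the box were atcac at hht2 and hhf2, at hht3 and hhf3 and at hta1 and htb1, and atcaa at hht1 and hhf1 and at hta2. The bases after the box had no such common run.

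Few of the promoter windows searched held the box. It was found on either strand in 20 of 5106 promoter windows of listed coding genes, which is 0.392%, and 9 of those 20 windows, with 5 separate boxes among them, belong to the core histone genes. A single AACCCT, which the tandem box contains, was present in 8.30% of the windows. The first base of the box lay 59 bases before the start of hht2 and htb1, 64 before hhf1 and hta2, 73 before hht3, 80 before hht1, 87 before hhf2, 130 before hta1 and 140 before hhf3. The annotated transcript of hhf3 begins at its start codon, so its distance is counted from there. The window of pht1 held neither the tandem box nor a single AACCCT. The short motif GATA, the core letters recognised by zinc finger factors of the class that includes the histone gene activator Ams2, was found in the windows of 8 of the 10 genes and in 89.2% of all windows. These are matches of letters and no measure of binding. The box was known from histone promoters beforehand, so the share of its windows that belong to histone genes is a description and no test.

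**Figure D1:**
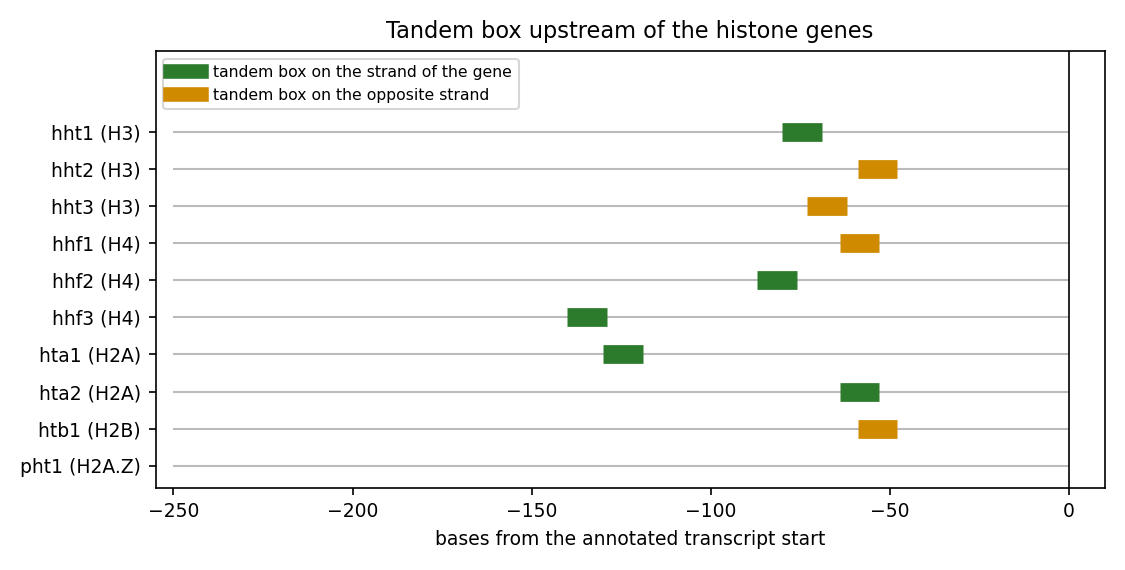
Position of the tandem box in the 250 bases before the annotated transcript start of each gene, in bases (x axis, start at 0). Green marks a box on the strand of the gene and orange a box on the opposite strand; 9 genes have 1 box each, between 140 and 48 bases before the start, and pht1 has none.

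The coding sequences of the copies are alike but not identical, which sets how well reads can be assigned to a copy. Of the 411 coding bases of the H3 genes, hht1 and hht3 shared 92.7%, hht1 and hht2 88.8%, and hht2 and hht3 88.3%. Of the 312 coding bases of the H4 genes, hhf1 and hhf3 shared 93.3%, and hhf2 shared 91.3% with either. The H2A genes hta1 and hta2 shared 86.5% of their aligned coding bases, while pht1 shared 55.1% with hta1 and 58.2% with hta2. The first 90 coding bases of the H3 and H4 copies are shown from ASM294v3, 5′ to 3′ on the strand of the gene, with each base in capitals at which the 3 copies are not all the same. This stretch encodes the amino-terminal end of each histone, where many of the modified lysines lie, and its length was not set by the bounds of the tail.
hht1, chrI:4699829-4699918: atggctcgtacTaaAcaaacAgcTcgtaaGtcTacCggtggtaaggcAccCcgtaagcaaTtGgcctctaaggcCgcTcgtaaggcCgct
hht2, chrII:1365158-1365247: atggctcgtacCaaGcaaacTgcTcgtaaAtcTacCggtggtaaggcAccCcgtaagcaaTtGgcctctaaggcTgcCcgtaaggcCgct
hht3, chrII:3529440-3529529: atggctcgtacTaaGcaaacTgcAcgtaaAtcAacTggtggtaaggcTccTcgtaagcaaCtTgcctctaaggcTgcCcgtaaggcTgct
hhf1, chrI:4699307-4699396: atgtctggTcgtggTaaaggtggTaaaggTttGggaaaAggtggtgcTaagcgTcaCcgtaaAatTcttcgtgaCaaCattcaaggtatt
hhf2, chrII:1364734-1364823: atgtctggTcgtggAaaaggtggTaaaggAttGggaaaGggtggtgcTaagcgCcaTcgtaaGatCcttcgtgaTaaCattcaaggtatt
hhf3, chrII:3529767-3529856: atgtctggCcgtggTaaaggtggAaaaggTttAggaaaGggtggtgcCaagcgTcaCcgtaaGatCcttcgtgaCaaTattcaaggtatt
The copies differed at 14 of these 90 positions in H3 and at 13 in H4, and over the whole coding sequence at 61 and 37 positions. Of all stretches of 50 bases in the annotated transcripts, 6 of hhf2 and 6 of hhf3 occurred elsewhere in the genome without a mismatch, which is 0.803% and 1.05% of their stretches, and those of the other 8 genes did not. At 100 bases none of the 10 genes had such a stretch. The read length and the treatment of reads that align to several places could not be learned from the sources at hand, so the split of reads among copies, most of all between hhf2 and hhf3, is uncertain.

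Transcripts on the opposite strand overlap 8 of the 10 genes in the reference annotation, all but hht2 and hhf1. Those over hhf2, hhf3 and hta1 cover the whole histone gene, and the others cover between 6.01% and 58.1% of it. The coding genes rav1, at the 3′ end of hht3, and sec5, at the 3′ end of htb1, are among them and are listed in the tables, and the others are annotated non-coding RNAs that the tables do not list. The libraries were made with a kit that keeps the strand, but the sources at hand do not state whether the counting used it. If it was not used, reads of a histone gene and of its antisense partner are summed in the values below. On the same strand, SPNCRNA.1432 overlaps hhf2 and SPNCRNA.1194 overlaps htb1, and strand alone would not separate reads from those overlaps.

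The core histone genes were among the most abundant mRNAs. Their mean counts ran from 5529 (hhf2) to 34933 (htb1) in the WT and seb1-1 libraries and from 8078 (hhf2) to 29710 (htb1) in the epe1KO and epe1KO_tfs1DN libraries. All 9 lay above the 89th percentile of the listed genes in the first table and above the 93rd in the second. The counts of the 10 genes made up 0.781% of all listed counts in the first table and 1.01% in the second. Counts per kilobase of annotated transcript were used to compare genes with each other.

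By annotated transcript length the highest level per kilobase was that of the H3 gene hht2, and by coding length, as by mean count, it was that of the H2B gene htb1. Per kilobase of coding sequence htb1 was at 91689 in the first table and 77978 in the second, where hht2 was at 76032 and 51285. Per kilobase of transcript the level of hht2 was 44642 in the WT and seb1-1 libraries and 30112 in the epe1KO and epe1KO_tfs1DN libraries, the highest of the 10 genes in each table. The level of hht3 was 28860 and 24868, and that of hht1 was 23080 and 22773, in the same order of tables. In the first table hht2 stood between ole1, a fatty acid desaturase gene, at 44667, and rpl3702, a ribosomal protein gene, at 44527. The 3 H3 genes kept their order in both tables, but hht2 made up 46.2% of the summed H3 level per kilobase in the first table and 38.7% in the second.

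Per kilobase of transcript, each H4 gene was lower than each H3 gene within a table. The level per kilobase of hhf1 was 16011 in the WT and seb1-1 libraries and 18571 in the epe1KO and epe1KO_tfs1DN libraries, that of hhf3 was 10229 and 13653, and that of hhf2 was 6946 and 10148. With 48.2% and 43.8% of the summed H4 level, hhf1 was the leading H4 copy, while its neighbour hht1 was the lowest H3 copy. The pair of hht2 and hhf2 was the most uneven, since hht2 is the highest H3 copy and hhf2 the lowest H4 copy. The level per kilobase of hht2 was 6.43 times that of hhf2 in the first table and 2.97 times in the second. For hht3 and hhf3 these ratios were 2.82 and 1.82, and for hht1 and hhf1 they were 1.44 and 1.23. Summed over the 3 copies, H3 was at 2.91 times the H4 level in the first table and 1.84 times in the second. These ratios depend on the length used. The annotated transcript of hhf3 begins at its start codon, which shortens the length by which its count is divided. By mean count hht3 was at 3.47 times hhf3 in the first table and 2.24 times in the second. With the coding length in place of the transcript length the ratio of H3 to H4 was 2.19 and 1.40, and hht1 was at 0.933 times hhf1 in the second table. By that length hhf1, at 49224, was also above hht3, at 46347, in the second table. Near hhf2 in the first table stood lat1, at 6989, and rtc3, at 6883.

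**Figure D2:**
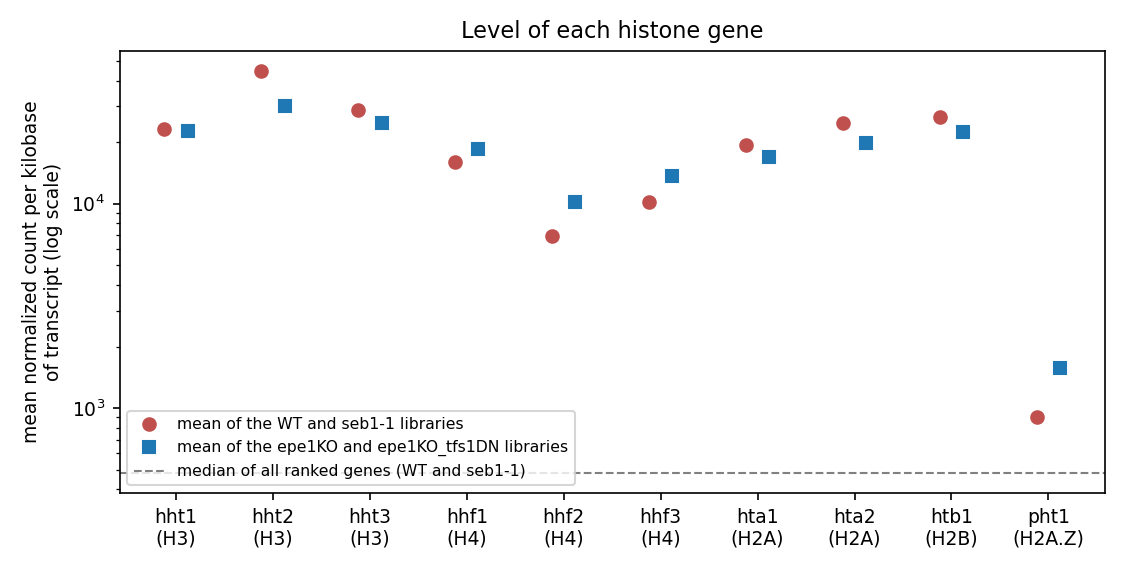
Mean normalized count per kilobase of annotated transcript (log scale) of each gene, as circles for the 4 libraries labelled WT and seb1-1 and as squares for the 4 labelled epe1KO and epe1KO_tfs1DN; the broken line is the median of all ranked genes in the first table, 481. The points are pooled means with no error bar; the 9 core genes lie between 6946 and 44642 and pht1 at 907 and 1573.

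The H2A and H2B genes lay near the lowest H3 gene and the highest H4 gene. In the first table all 3 were above the H4 genes, and in the second table all 3 were below the H3 genes, with hta1 also below hhf1. The level of hta2 was 24719 in the WT and seb1-1 libraries and 19814 in the epe1KO and epe1KO_tfs1DN libraries, and that of hta1 was 19422 and 17004. The H2A copies therefore shared their summed level almost evenly, with 56.0% and 53.8% from hta2, which has no H2B gene beside it. By coding length the share of hta2 was 51.9% and 49.7%, so its lead depends on the length used. The only H2B gene, htb1, was at 26485 and 22524 per kilobase. Summed H2A was at 1.67 times the H2B level in the first table and 1.63 times in the second, and by coding length at 1.15 and 1.13 times, since htb1 has the longest 3′ untranslated region of the 10 genes. The genes next to htb1 in level were rpp103, a gene for an acidic ribosomal protein, at 26667, and gas2, a cell wall glucanosyltransferase gene, at 25871, and those next to hta1 were rpl401 at 19447 and rpp101 at 18910, both ribosomal protein genes.

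The H2A.Z gene stood far below the core genes. Its level per kilobase was 907 in the first table, rank 1601 of 5111 ranked genes, and 1573 in the second, with rtc6 at 907 and ubc6, a ubiquitin-conjugating enzyme gene, also at 907 as its neighbours in the first table. The summed H2A level was 48.7 times that of pht1 in the WT and seb1-1 libraries and 23.4 times in the epe1KO and epe1KO_tfs1DN libraries. Differences between the tables were not tested, because each was scaled on its own and neither gives the spread of a level between libraries. Which genes next to each other in level differ beyond their spread could not be determined for the same reason.

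**Figure D3:**
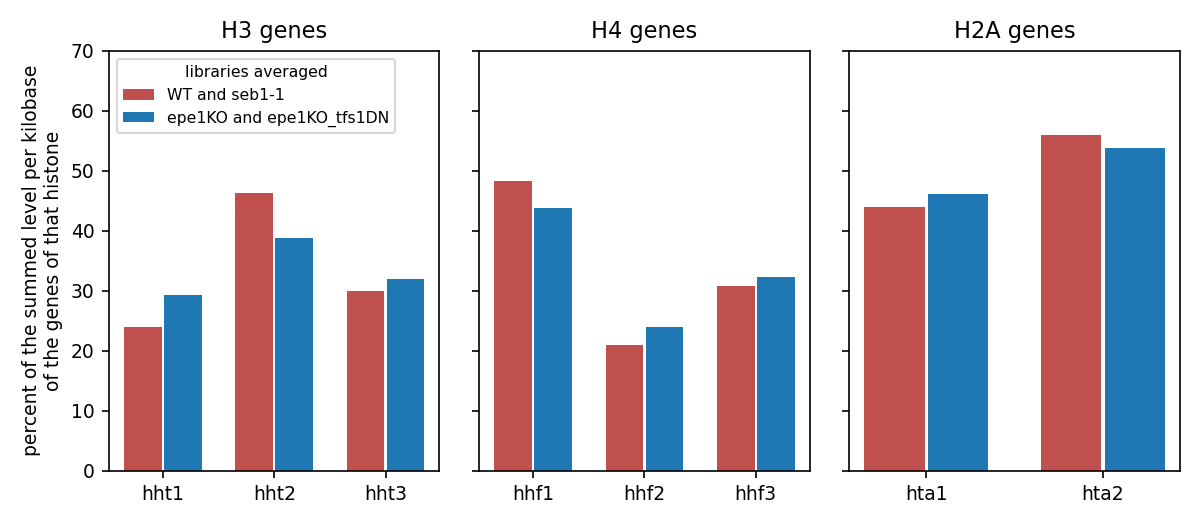
Share of each copy in the summed level per kilobase of the H3, H4 and H2A genes, in percent, for the libraries labelled WT and seb1-1 (red) and those labelled epe1KO and epe1KO_tfs1DN (blue). Bars are shares of pooled means with no error; hht2 leads among the H3 genes (46.2% and 38.7%) and hhf1 among the H4 genes (48.2% and 43.8%).

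In the comparison of seb1-1 with WT, none of the 10 histone genes passed the test, which is an adjusted p below 0.01 from the authors' DESeq2 table, adjusted by Benjamini-Hochberg over 4972 genes. Of all genes tested, 0.483% passed, so that among 10 genes a count of 0 is near the background. At an unadjusted p below 0.05 the count was also 0 of 10, beside 9.29% of all genes. The adjusted p of the members ran from 0.889 to 0.999 in that DESeq2 table. A fold change lay above 0 for 5 genes and below 0 for 5, with a median of -0.02 beside -0.03 over all genes. Every 95% interval (normal approximation from the SE) included 0, and all 10 lay within a 2-fold change in either direction. In RNA from a whole culture, fewer cells in the phase that makes histones and less histone RNA per cell cannot be told apart.

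The largest difference in seb1-1 was that of the H2B gene. From the mean and the fold change, htb1 had a level of 39003 normalized counts in WT and 30864 in seb1-1, a log2 fold change of -0.34 ± 0.30 (SE) with an interval from -0.93 to 0.26. Its H2A neighbour hta1, which shares its box, was at 19878 and 20442, a log2 fold change of 0.04 ± 0.30. The other H2A gene, hta2, was at 23423 in WT and 19737 in seb1-1, a log2 fold change of -0.25 ± 0.31. The intervals of these 3 genes overlap widely.

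The H3 and H4 genes were spread to both sides of 0 in seb1-1. The H3 gene hht2 was at 28153 normalized counts in WT and 34345 in seb1-1, a log2 fold change of 0.29 ± 0.31 with an interval from -0.32 to 0.89. Its H4 partner hhf2 was at 5131 and 5927, a log2 fold change of 0.21 ± 0.30. The pair of hht1 and hhf1 lay on the other side of 0, at -0.11 ± 0.30 and -0.08 ± 0.30. In the third pair the signs were mixed, -0.05 ± 0.31 for hht3 and 0.19 ± 0.30 for hhf3. None of these values exceeded its SE. The H2A.Z gene pht1 was at 1125 in WT and 1128 in seb1-1, a log2 fold change of 0.0035 ± 0.29 with an interval from -0.57 to 0.58.

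The depth of evidence differed between the comparisons. In the seb1-1 comparison the SE of the 10 genes was 0.29 to 0.31, like the median of all genes, 0.30, and the smallest absolute log2 fold change that passed in the whole table was 1.24. No gene with a change under 2-fold passed there, so a smaller change of a histone gene was not detectable at this precision. When the moderation was undone with a prior SD of 2 times the largest SE, the 10 intervals reached from -1.15 to 1.11. Of these, 7 of 10 lay within a 2-fold change. That prior was chosen after seeing the data. The planned prior SD, the largest SE, put the fold changes further from 0, between -0.89 and 0.80. Its intervals are not given here, and the bounds on a change depend on the prior. In the tfs1DN comparison the SE was 0.12 to 0.15, and the smallest absolute log2 fold change that passed was 0.44. The Wald scores of all genes had a wider spread there, with a scaled median absolute deviation of 1.48 beside 1.01 in the seb1-1 comparison. Whether the smaller SE understates the difference between libraries was not tested.

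**Figure D4:**
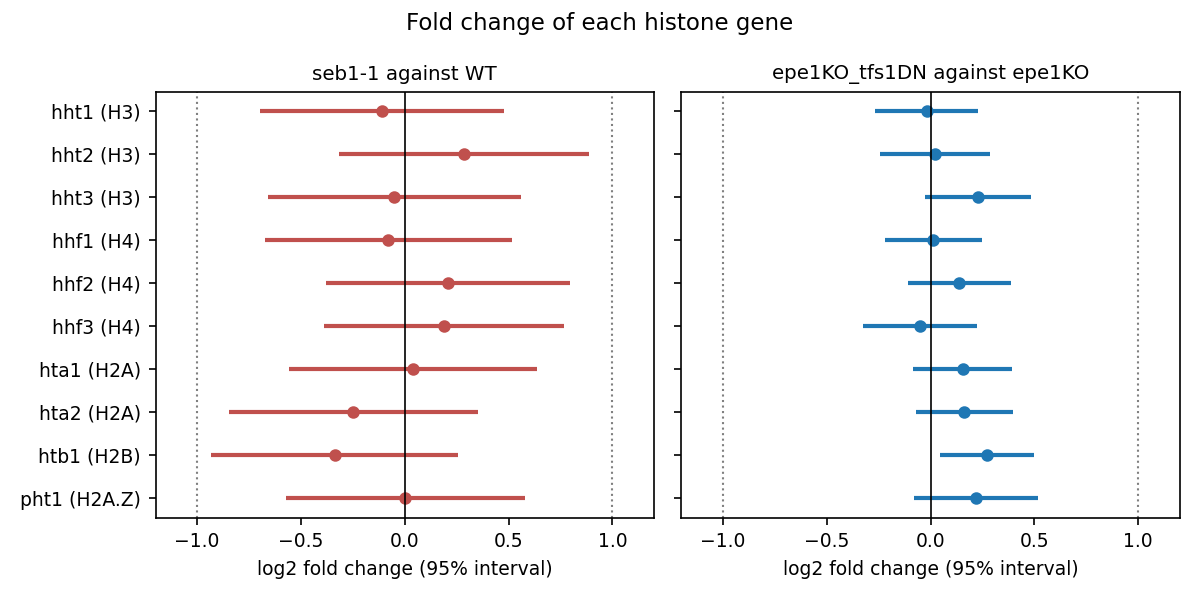
Moderated log2 fold change of each gene (points) with its 95% interval (lines, normal approximation from the SE) for seb1-1 against WT (left) and epe1KO_tfs1DN against epe1KO (right); dotted lines mark a 2-fold change. All 20 intervals lie between the dotted lines, and the interval of htb1 on the right, from 0.04 to 0.50, is the only one that does not include 0.

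In the comparison of epe1KO_tfs1DN with epe1KO, again none of the 10 genes passed at an adjusted p below 0.01 in the authors' DESeq2 table, beside 4.58% of 4983 genes tested. At an unadjusted p below 0.05 the count was 1 of 10, beside 20.6% of all genes. The adjusted p of the members ran from 0.137 to 0.968 in that DESeq2 table. The fold change was above 0 for 8 of the 10 genes, where 49.9% of all genes lay above 0, and its median was 0.15 beside -0.00029 over all genes. The counts of genes above and below 0 carry no test, and the genes were chosen with earlier results of these data known.

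The gene nearest to the threshold was htb1. Its level was 26938 normalized counts in epe1KO and 32481 in epe1KO_tfs1DN, a log2 fold change of 0.27 ± 0.12 (SE) with an interval from 0.04 to 0.50, and the adjusted p was 0.137 in the DESeq2 table. The call on htb1 depends on what is taken as unchanged. The tenth of genes with the highest means, to which all core histone genes belong, had a median log2 fold change of -0.13 in this comparison. Measured from that median, htb1 was at 0.40 with a recomputed adjusted p of 0.0087, and was the only histone gene to pass. Counting passes under this centring was a choice made after seeing the data. The share of all genes that passes under it is not given here, so this count has no background beside it. With the Wald scores divided by their spread over all genes, the lowest adjusted p of a histone gene was 0.793. The level per cell was not measured, so neither centring can be preferred from these tables.

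The other members showed smaller values. The H2A genes hta1 and hta2 had log2 fold changes of 0.15 ± 0.12 and 0.16 ± 0.12, from 16707 to 18594 and from 16331 to 18264 normalized counts. Among the H3 genes, hht3 was at 17537 in epe1KO and 20561 in epe1KO_tfs1DN, a log2 fold change of 0.23 ± 0.13 with an interval from -0.03 to 0.48. The values of hht1 and hht2 were -0.02 ± 0.13 and 0.02 ± 0.13, and their intervals lay between -0.27 and 0.29. Among the H4 genes, hhf2 was at 0.14 ± 0.13, hhf1 at 0.01 ± 0.12 and hhf3 at -0.05 ± 0.14. For hht3 and hhf3, which share a box, the intervals of the fold changes overlap. The H2A.Z gene pht1 was at 1807 in epe1KO and 2100 in epe1KO_tfs1DN, a log2 fold change of 0.22 ± 0.15 with an interval from -0.08 to 0.52.

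**Figure D5:**
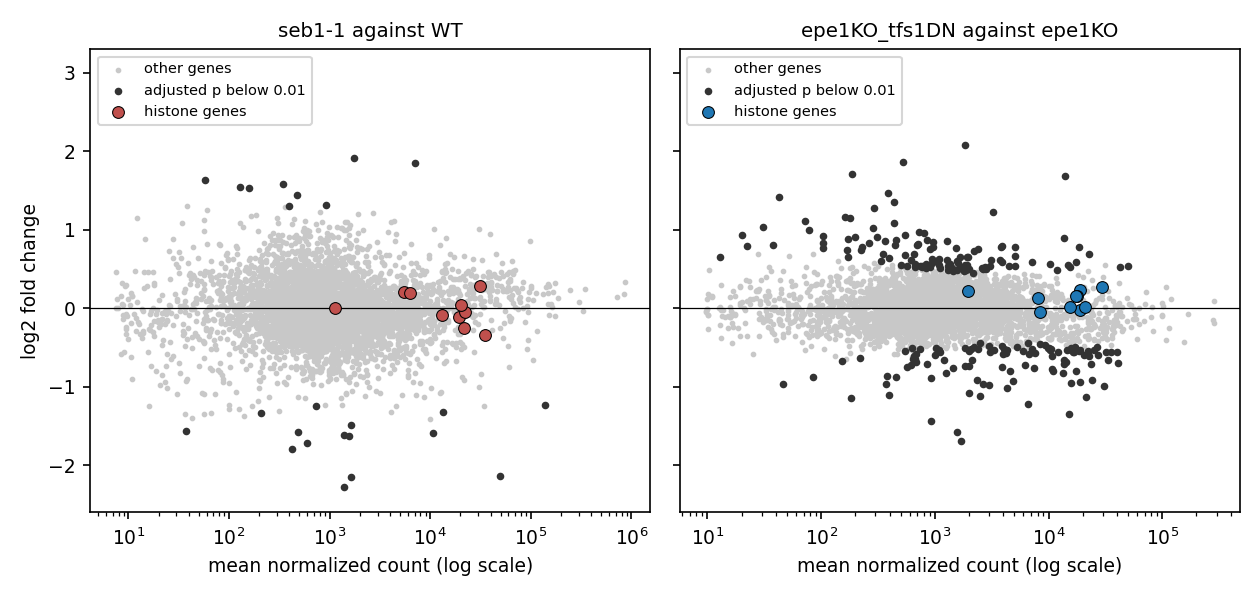
Log2 fold change against the mean normalized count (log scale) for all genes with an adjusted p, in seb1-1 against WT (left) and epe1KO_tfs1DN against epe1KO (right); dark points have an adjusted p below 0.01 (0.483% and 4.58% of genes) and large coloured points are the 10 histone genes. The histone genes lie among the grey points on both sides, 9 of them at high means and pht1 near the middle of the range.

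In all, 54 genes were read from 6 lists. Some lists hold genes that act on histone genes and histones, and the others hold cell cycle and cell separation genes. In neither comparison did any of the 54 pass at an adjusted p below 0.01 in the authors' DESeq2 tables, beside 0.483% and 4.58% of all genes. At an unadjusted p below 0.05 the counts were 1 of 54 in seb1-1, beside 9.29% of all genes, and 6 of 54 in epe1KO_tfs1DN, beside 20.6%. In seb1-1 that gene was eng1, a cell separation gene. The 6 in epe1KO_tfs1DN include ctp1 of the cell cycle list and adg3 of the cell separation list. The regulators of histone genes are the GATA factor Ams2, the box-binding protein Teb1, the HIRA corepressor subunits Hip1, Slm9, Hip3 and Hip4, and the ubiquitin ligase subunit Pof3, which acts on Ams2. The fold changes of these 7 genes had a median of -0.13 in seb1-1, beside -0.03 over all genes, and of 0.06 in epe1KO_tfs1DN. The one with the lowest p was hip4 in both, at -0.35 ± 0.32 and 0.38 ± 0.15, with adjusted p of 0.890 and 0.109 in the DESeq2 tables.

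The 10 genes for histone chaperones, which escort H3 and H4 or H2A and H2B to and from DNA, had medians of -0.09 in seb1-1 and 0.02 in epe1KO_tfs1DN. The lowest p was that of asf1, an H3 and H4 chaperone, in seb1-1 (-0.32 ± 0.29, adjusted p 0.892 in the DESeq2 table) and that of spt6, a chaperone that moves with RNA polymerase II, in epe1KO_tfs1DN (-0.34 ± 0.13, adjusted p 0.0793). The 12 genes of the SWR1 list, which serve the deposition of the pht1 product, had medians of 0.09 and 0.03. Here swc2, the subunit that binds H2A.Z in budding yeast, had the lowest p in both comparisons, at 0.44 ± 0.30 in seb1-1 and 0.43 ± 0.15 in epe1KO_tfs1DN, with adjusted p of 0.785 and 0.0396 in the DESeq2 tables. The 5 genes for the centromeric H3 variant CENP-A and its loading factors had medians of -0.02 and -0.0092. The lowest p was that of scm3, the CENP-A chaperone gene, in seb1-1 (-0.25 ± 0.35) and that of cnp1, which encodes CENP-A, in epe1KO_tfs1DN (0.21 ± 0.16).

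Because histone mRNAs rise in S phase, genes of neighbouring cell cycle phases were read beside them. The 12 genes driven by MBF, the transcription factor of the G1 to S transition, had a median of 0.05 in seb1-1 and 0.06 in epe1KO_tfs1DN, and ranged from -0.41 (cdt2) to 0.25 and from -0.17 to 0.31 (ctp1). The 8 cell separation genes, which peak between M and G1, had medians of 0.28 and -0.11. Among them eng1, which encodes a glucanase that dissolves the septum, was at 1.11 ± 0.29 in seb1-1 with an adjusted p of 0.0205 in the DESeq2 table, and adg3 had the lowest p in epe1KO_tfs1DN, at -0.28 ± 0.13 with an adjusted p of 0.199. The share of cells in S phase was not measured, and its part in the histone values was not tested.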

How the data were processed

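Poly(A)-selected RNA of 8 libraries, 2 per group, was sequenced on directional libraries, and the authors aligned the reads with TopHat. Per the labels the build was ASM294v2. Read length, program versions and the tool and strand setting of the counting: not given in the sources used here. The authors deposited, for each pair of groups, a table made with DESeq2: the mean normalized count over 4 libraries (used as a signal), the moderated log2 fold change with its SE, the Wald score, and the Wald p-value with its Benjamini-Hochberg adjusted value. No counts per library were used here, so the depth of single libraries is unknown. The labels do not say that the 2 libraries of a group are separate cultures, so p-values measure the spread between these libraries.

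A gene passed if the deposited adjusted p was below 0.01. The study also asked for a change above 2-fold. Group levels were computed as 2 × mean / (1 + 2 to the power of the log2 fold change) for the control and as that value times the fold for the mutant. A positive sign in the second table was read as higher in epe1KO_tfs1DN, after the study's supplementary sheet with the same values. Transcript lengths, promoters and coding sequences were read from RefSeq ASM294v3 by gene ID. Of the listed IDs, 5111 were matched, and the printed coordinates are those of ASM294v3 only. AACCCT, its tandem repeat and GATA were searched on both strands of the 250 bases before each annotated start. Alternatives were the threshold, the genes adjusted over, the centring, the scale of the Wald scores, the moderation and the length. Named genes were the 10 members, the targeted genes, the gene of each list with the lowest p where none passed, and the genes next in level. The members and lists were chosen with earlier results of these data known. The Benjamini-Hochberg adjustment and the undoing of moderation with a prior SD of 2 times the largest SE were tested on simulated data. The simulation used that same prior, so it does not show whether the prior fits the deposited values. All calculations were run in Python 3.11.15 with pandas 2.3.3, SciPy 1.17.1 and Biopython 1.88.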

Additional observations from a re-analysis of the deposited data

How the results depend on the processing

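No paired analysis was possible because the tables hold no value per library, and leaving out each replicate in turn could not be run for the same reason. The count of histone genes that passed was 0 in both comparisons at an adjusted p below 0.05, with the adjustment over every gene with a p-value or over genes with a mean of at least 100, after centring on the median of all tested genes, and with the Wald scores divided by their spread. Centring on the median of the tenth of genes with the highest means was, for these counts, a choice made after seeing the data. It left 0 in the seb1-1 comparison and gave 1 in the tfs1DN comparison, htb1. No share of all genes passing under that centring is given beside these counts. The same centring turned the sign of 4 of the 20 fold changes, to -0.011 for hta1 and -0.048 for pht1 in seb1-1 and to 0.11 for hht1 and 0.075 for hhf3 in epe1KO_tfs1DN. Undoing the moderation rescales each value by a positive factor, so it cannot change a sign. With a prior SD equal to the largest SE, as planned, the fold changes ran from -0.89 to 0.80 in seb1-1 and from -0.09 to 0.45 in epe1KO_tfs1DN. The deposited SE falls at low counts (median 0.24 and 0.09 for genes with a mean under 5), which that reading does not allow for, so the range from -1.15 to 1.11 and the count of 7 of 10 in the report use a prior SD of 2 times the largest SE, chosen after seeing the data. All other intervals are those of the deposited, moderated values. Levels per kilobase are by construction higher for all 10 genes with the coding length, which is shorter than the transcript. That length put htb1 in place of hht2 as the highest in both tables.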

Other observations

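The tandem box stood in the promoter windows of 11 listed genes besides the histone genes. Among them are the chaperone genes hsp90, ssa1 and ssa2, the TATA-binding protein gene tbp1, the translation factor gene tif51, the bromodomain protein gene bdf2 and spi1, which encodes the Ran GTPase. None of the 11 passed at an adjusted p below 0.01 in the authors' DESeq2 tables, beside 0.483% and 4.58% of all genes. At an unadjusted p below 0.05 the counts were 3 of 11 in seb1-1 (tif51, ssa1 and tbp1), beside 9.29% of all genes, and 1 of 11 in epe1KO_tfs1DN (tif51), beside 20.6%. Their median log2 fold change was 0.16 in seb1-1 and -0.12 in epe1KO_tfs1DN. The widest values in seb1-1 were those of tif51, at 1.01 (adjusted p 0.0649 by DESeq2), and ssa1, at -0.79 (adjusted p 0.161 by DESeq2). In epe1KO_tfs1DN the same genes were at -0.26 and -0.27 (adjusted p 0.163 and 0.329 by DESeq2). These genes were picked out after their values were seen, and the list carries no test.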
